A study of Mus musculus with 17 samples.

Results

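The genes described here are 10 heat shock proteins and chaperones, taken by symbol from the 38355 Ensembl identifiers counted in hippocampal RNA of young and aged mice. They were Hspa1a, Hspa1b, Hspa5, Hspa8, Hsph1, Dnajb1, Hspb1, Hsp90aa1, Hsp90ab1 and Hspd1, and each matched 1 identifier. The mice were untreated wild type C57BL/6J animals, the hippocampus was dissected by hand, and polyA RNA was sequenced. Single-end reads of 50 bases were made from 5 libraries at 3 months (3M) and 6 at 24 months (24M), and paired-end reads of 100 bases from 3 libraries at 3M and 3 at 29 months (29M). The oldest mice had been bought at 24 months and kept on in the authors' own rooms. Aged and 3M samples were compared within a library type, which asks how the RNA of these genes stood at an advanced age and near the end of the life span. No young and aged libraries of different read types were compared, since age and library type go together across the aged groups.

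Heat shock proteins are molecular chaperones: they bind unfolded stretches of other proteins, hold or refold them, and pass those that cannot be rescued to degradation. HSP70 proteins work in an ATP-driven cycle that J proteins such as Dnajb1 start and nucleotide exchange factors such as Hsph1 reset, and HSP90 proteins take over clients such as kinases and steroid receptors at a late folding step. After heat or other protein damage, heat shock factor 1 binds paired GAA units in promoters and induces the stress-responsive members, whereas the endoplasmic reticulum has its own sensor system, the unfolded protein response. Neurons live long and do not divide, so that chaperones are often studied in the ageing brain.

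In GRCm38 with the GENCODE annotation, Hspa1a (ENSMUSG00000091971, chr17:34969190-34972156) and Hspa1b (ENSMUSG00000090877, chr17:34956436-34959238), the stress-inducible HSP70 proteins, are neighbours on the minus strand. Hspa8 (chr9:40800984-40810087, plus strand) encodes the constitutive cytosolic HSP70. Hspa5 (chr2:34771970-34777547, plus strand) encodes BiP, the HSP70 protein of the endoplasmic reticulum. Hsph1 (chr5:149614287-149636376, minus strand) encodes HSP110, the exchange factor and disaggregase partner of HSP70. Dnajb1 (chr8:83608193-83612653, plus strand) encodes HSP40, and Hspb1 (chr5:135887919-135889563, plus strand) encodes the small heat shock protein HSP25. Hsp90aa1 (chr12:110690605-110702728, minus strand) and Hsp90ab1 (chr17:45567775-45573271, minus strand) encode the inducible and the constitutive cytosolic HSP90, and Hspd1 (chr1:55077835-55088243, minus strand) encodes the mitochondrial chaperonin HSP60.

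The promoters below are shown as examples of windows with a heat shock element pair and of Hspa5, the member of the endoplasmic reticulum system, whose window has none. They come from RefSeq on GRCm38.p6, run 5′ to 3′ on the gene's own strand, and hold 250 bases before and 50 bases from the start of transcription. RefSeq windows were found for 7 of the 10 members, and Hspa8, Hsp90aa1 and Hsp90ab1 had none. Capitals mark heat shock element pairs in the first 3 (GAANNTTC or TTCNNGAA, each its own reverse complement, and overlapping pairs are merged). In Hspa5 they mark CCAAT and CCACG boxes on either strand, parts of the endoplasmic reticulum stress element.
Hspa1a, chr17:34972107-34972406, minus strand: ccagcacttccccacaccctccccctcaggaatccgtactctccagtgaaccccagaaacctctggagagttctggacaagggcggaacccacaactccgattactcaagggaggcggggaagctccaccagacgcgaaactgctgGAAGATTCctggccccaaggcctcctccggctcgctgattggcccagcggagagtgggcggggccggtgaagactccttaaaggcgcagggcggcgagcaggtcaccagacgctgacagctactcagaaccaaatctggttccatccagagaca
Hspa1b, chr17:34959189-34959488, minus strand: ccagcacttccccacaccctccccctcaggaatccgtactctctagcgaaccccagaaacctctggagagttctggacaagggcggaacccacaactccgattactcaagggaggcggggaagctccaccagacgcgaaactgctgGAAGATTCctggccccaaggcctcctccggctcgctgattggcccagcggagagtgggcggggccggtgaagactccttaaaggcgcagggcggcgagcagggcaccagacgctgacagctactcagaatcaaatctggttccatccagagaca
Hsph1, chr5:149636287-149636586, minus strand: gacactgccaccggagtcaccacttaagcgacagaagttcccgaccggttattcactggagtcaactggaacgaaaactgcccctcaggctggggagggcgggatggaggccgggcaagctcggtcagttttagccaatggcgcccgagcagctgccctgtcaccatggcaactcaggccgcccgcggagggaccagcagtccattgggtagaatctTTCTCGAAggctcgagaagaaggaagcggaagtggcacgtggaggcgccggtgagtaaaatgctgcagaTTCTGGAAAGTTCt
Hspa5, chr2:34771840-34772139, plus strand: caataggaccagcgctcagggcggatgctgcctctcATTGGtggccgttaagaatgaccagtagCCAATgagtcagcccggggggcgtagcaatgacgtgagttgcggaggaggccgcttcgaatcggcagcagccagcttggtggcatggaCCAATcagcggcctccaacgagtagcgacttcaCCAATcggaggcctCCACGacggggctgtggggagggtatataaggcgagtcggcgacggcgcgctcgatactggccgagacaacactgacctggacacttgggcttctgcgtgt

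Hspa1a and Hspa1b each held 1 pair, at 104 bases before the start in both. In the Hsph1 window above there were 3 pairs, of which 2 overlap and form a 3-unit element (3 GAA units in alternating orientation) that begins 36 bases after the start. Hspb1 held 2 pairs, 1 of the 2 Hspd1 windows held 3 overlapping pairs, and no pair was found in Hspa5 or in either window of Dnajb1. Over all 32851 RefSeq windows of this length, 15.1% held at least 1 pair and 0.603% a 3-unit element. The Hspa5 window held 4 CCAAT boxes and 1 CCACG box, where 37.4% of all windows held at least 1 of the former and 32.8% at least 1 of the latter. These matches describe letters in a window and were not tested for binding.

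**Figure D1:**
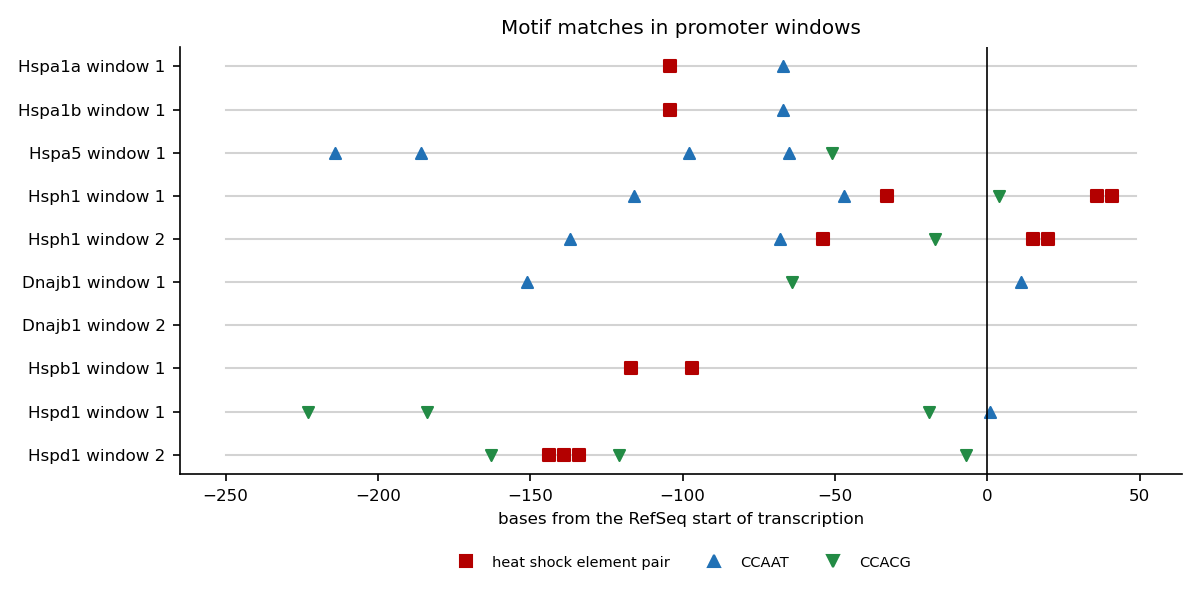
Matches of heat shock element pairs (squares), CCAAT (upward triangles) and CCACG (downward triangles), each on either strand, in the RefSeq promoter windows of 7 members, by distance in bases from the start of transcription. Hspa1a and Hspa1b have a pair at the same distance, 1 Hspd1 window holds 3 overlapping pairs, and Hspa5 has 4 CCAAT boxes and no pair.

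The coding sequences of Hspa1a and Hspa1b are nearly the same, which decides how well reads can be told apart between them. Aligned over 1926 bases they differed at 8 positions, so that 99.58% were identical, and the longest run without a difference was 638 bases. The stretch from coding base 1367 to 1416 is shown because it is as long as 1 single-end read and holds 2 of the differences, in capitals.
Hspa1a: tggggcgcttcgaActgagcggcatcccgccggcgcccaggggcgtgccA
Hspa1b: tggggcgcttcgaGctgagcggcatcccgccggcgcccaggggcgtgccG

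The 10 members span a wide range of levels in the hippocampus. Given as CPM (counts scaled to 1000000 a library) divided by the exon length in kilobases (CPM per kb, normalized over all libraries together), the order in the 3M paired-end samples began with Hsp90ab1 at 616 ± 19.9 (SD, n = 3). Hspa8 followed at 345 ± 13.0, Hsp90aa1 at 225 ± 5.64, Hspd1 at 64.9 ± 0.150, Hspa5 at 55.9 ± 0.796 and Hsph1 at 43.7 ± 3.39. Dnajb1 stood at 15.1 ± 0.793, and the last places were taken by Hspb1 at 3.30 ± 0.180, Hspa1b at 2.31 ± 0.226 and Hspa1a at 1.94 ± 0.282. Only the last neighbours in that order, Hspa1b and Hspa1a, overlapped between samples. In these paired-end samples the constitutive cytosolic chaperones Hsp90ab1 and Hspa8 had the highest levels per kb and the inducible HSP70 genes the lowest. Raw counts ran from 11 to 65 a library for Hspb1, 40 to 106 for Hspa1a and 53 to 166 for Hspa1b, and from 465 upward for every other member, which limits the precision of the first 3.

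In the 3M single-end samples the order was different. Hsp90ab1 again led with 612 ± 35.4 CPM per kb (SD, n = 5), but Hspa5 (69.8 ± 12.1), Hspa8 (59.7 ± 3.34), Hsph1 (55.6 ± 5.82) and Hsp90aa1 (49.97 ± 4.32) came next and each overlapped its neighbour, and Hspb1 (1.46) stood below Hspa1b (1.915). The 3M paired-end level of Hspa8 was 5.77 times the single-end level, that of Hsp90aa1 4.50 times, of Hspd1 2.34 times and of Hspb1 2.26 times. Over 16017 genes the median of this ratio was 0.995, its 5th percentile 0.782 and its 95th percentile 1.88. Hsp90ab1 (1.01) stood near the median, Dnajb1 (0.884) below it, and Hspa5 (0.802) and Hsph1 (0.786) close to the 5th percentile. Hspa1a (1.465) and Hspa1b (1.21) lay above the median and under the 95th percentile.

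The 4 members past the 95th percentile share sequence with other genes, but the ratio did not follow the shared part across all members. Of all 50-base windows along its annotated transcripts, Hspa8 shared 39.4% exactly with the transcript of another gene, Hsp90aa1 47.5%, Hspd1 42.1% and Hspb1 50.1%. The shares were highest for Hspa1a (66.3%) and Hspa1b (62.3%), whose ratios were lower than those of these 4, and were 3.44% for Hsp90ab1, 0.412% for Dnajb1 and 0 for Hspa5 and Hsph1. With windows of 100 bases the share of Hspa8 was 28.5% and that of Hsp90aa1 38.0%. Reads without a unique place on the genome are not counted. The count line for alignments that are not unique held 22.9% to 26.6% of the single-end totals over all lines. For the paired-end totals it held 10.8% to 12.7%. These are shares of that line and not of reads. How far these lost reads make up the difference between library types was not tested. Library type goes with read length here, and the labels name no batch. Levels of Hspa8, Hsp90aa1, Hspd1, Hspb1, Hspa1a and Hspa1b are therefore uncertain in absolute terms, and each age comparison below stays within 1 library type.

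**Figure D2:**
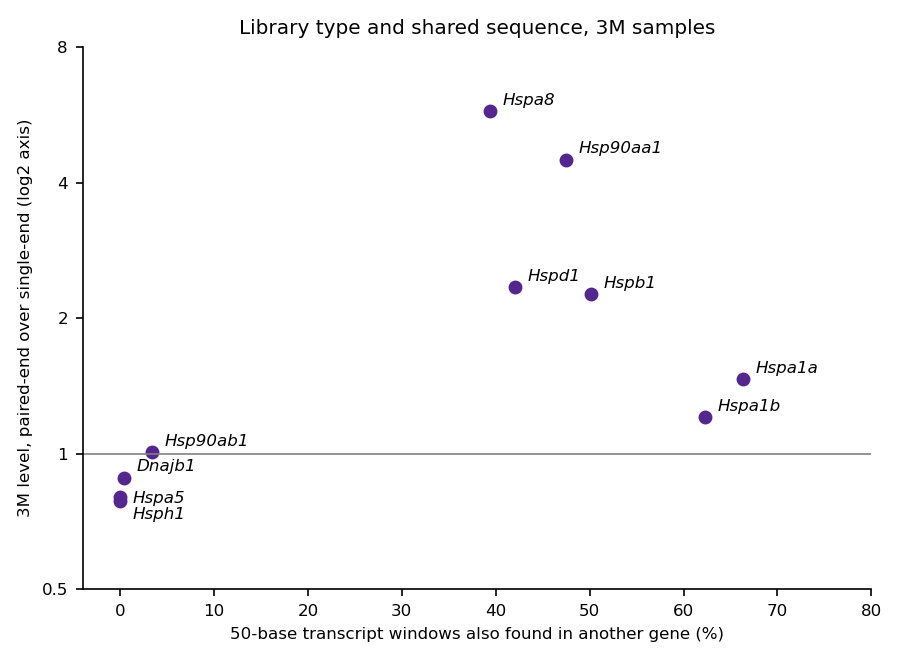
Ratio of the mean 3M level in paired-end to single-end samples (log2 axis) against the percentage of 50-base transcript windows found exactly in another gene, 1 point for each of the 10 members. Hspa5, Hsph1, Dnajb1 and Hsp90ab1 share under 4% and lie between 0.786 and 1.01, while Hspa8 and Hsp90aa1 reach 5.77 and 4.50. Hspa1a and Hspa1b share the most, 66.3% and 62.3%, and lie at 1.465 and 1.21.

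Between 9213474 and 28438296 counts fell on genes in a library. Replicates 1 and 4 of the 24M group differed by less than the sampling noise (a mean noise ratio of 0.406, where the next of 136 pairs gave 1.23) and were counted as 1 sample, their mean, which leaves 5 samples at 24M. All 8 neuronal markers were detected in every group, and their summed level was 6960 to 7875 CPM in the single-end and 6478 to 6881 CPM in the paired-end samples. 2 single-end libraries stood apart: 3M replicate 4 held 589 CPM of 8 striatum markers where the other 3M samples held up to 207, and 24M replicate 2 held 544 CPM of 5 blood markers where the others held up to 160. Whether the libraries of a group came from separate animals is not given in the labels, so that p-values measure the spread between these samples.

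At 24M, none of the 10 members reached the call threshold, an adjusted p of at most 0.05 together with a log2 fold change of at least 0.5 in either direction (quasi-likelihood test of edgeR, p-values adjusted by Benjamini-Hochberg over all 15683 genes tested). Of all genes tested, 1.98% were called, 1.34% as higher and 0.638% as lower. Those 210 higher and 100 lower genes became 394 and 174 without 3M replicate 5, and 91 and 28 without 24M replicate 2. DESeq2 likewise called 0 of the 10, and 2 members had an unadjusted p under 0.05 (26.1% of all genes), both lower (12.1%). Hsph1 was the 1 member that passed the adjusted p alone, and it was lower (2.37% of all genes). All 24M samples lay below all 3M samples for 1 of 10 members, again Hsph1 (3.42% of all genes), and all lay above for none (3.15%). The median log2 fold change of the 10 members was -0.11, and that of all genes -0.00.

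The same count was 0 of 10 at 29M, where 1.45% of 15097 genes tested were called (1.34% higher, 0.113% lower), and DESeq2 also called 0. Hsph1 and Hsp90aa1 passed the adjusted p alone, both lower (0.662% of all genes). An unadjusted p under 0.05 was found for 5 members that were lower (7.48% of all genes) and for 1 that was higher (9.86%). For 6 of the 10 members all 29M samples lay below all 3M samples (10.5% of all genes), namely Hspa5, Hspa8, Hsph1, Hsp90aa1, Hsp90ab1 and Hspd1, and for none did all lie above (11.9%). These 6 values share the 6 libraries and were not tested as a group. The median log2 fold change of the members was -0.07, against -0.00 over all genes. In bulk tissue, fewer cells of a type and less RNA per cell cannot be told apart.

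**Figure D3:**
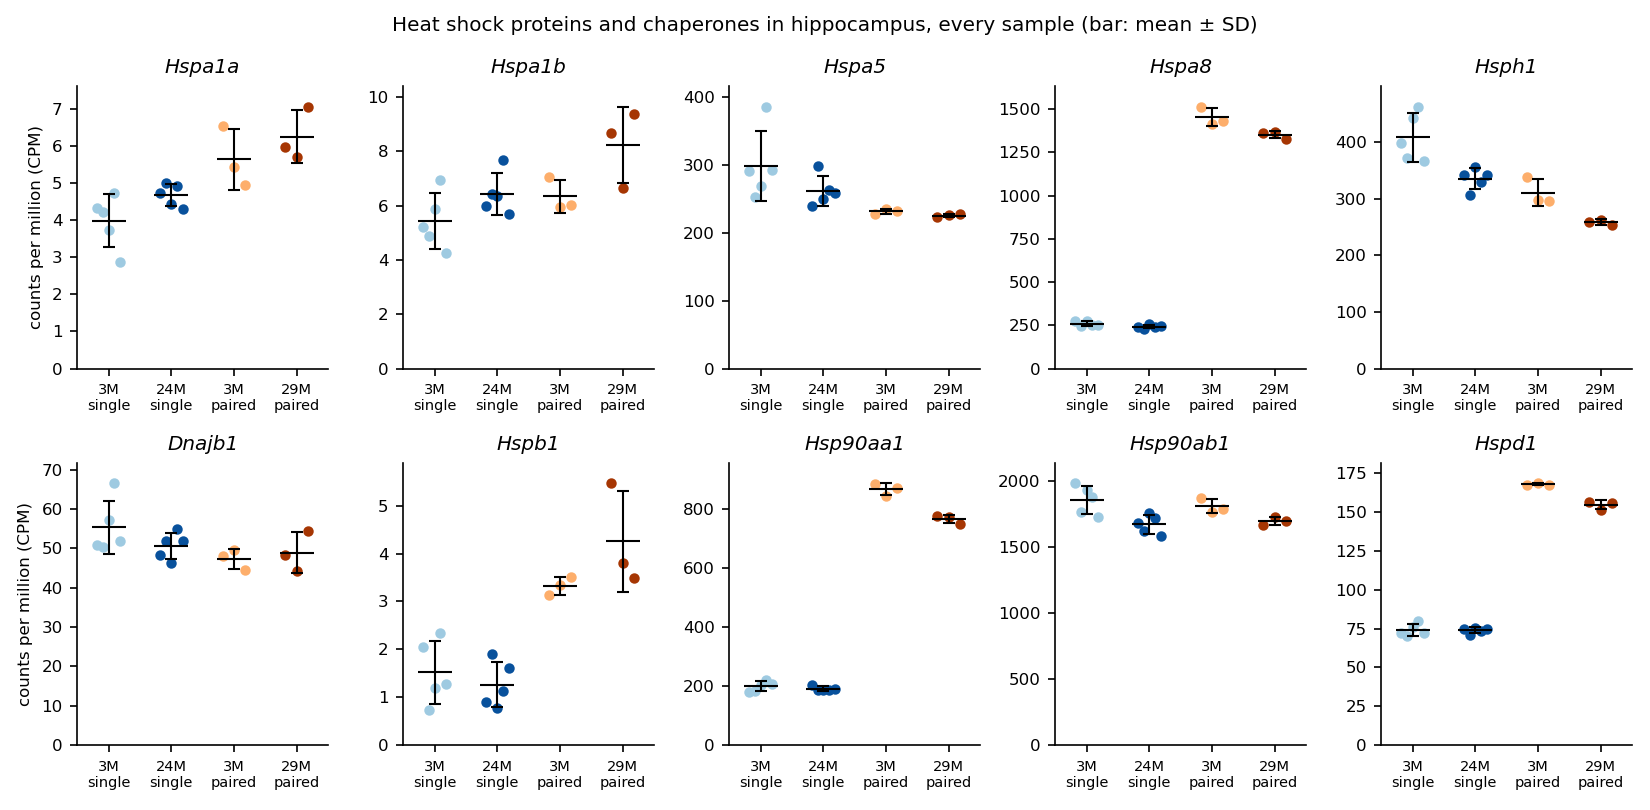
CPM of the 10 members in every sample, with the mean and SD of each group. Points are samples of the 3M and 24M single-end groups (n = 5 each, 24M replicates 1 and 4 as 1 sample) and of the 3M and 29M paired-end groups (n = 3 each). Hsph1 lies lower in every aged sample than in every 3M sample of its own library type, and Hspa8, Hsp90aa1 and Hspd1 differ more between library types than between ages.

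Hsph1, the exchange factor of HSP70, had the same direction and about the same size at both ages. In the 3M single-end samples it stood at 399, 372, 443, 462 and 366 CPM, and in the 24M samples at 343, 307, 356, 330.5 and 341 CPM. The groups did not overlap, although the highest 24M sample and the lowest 3M sample were close. The log2 fold change was -0.28 (SE 0.068, 95% confidence interval -0.43 to -0.14), which is a change of -17.9%, at an adjusted p of 0.0326. In the paired-end samples Hsph1 stood at 338, 298 and 296 CPM at 3M and at 259, 263 and 253 CPM at 29M. Every 29M sample was again below every 3M sample, with a log2 fold change of -0.27 (SE 0.048, interval -0.37 to -0.16), a change of -16.9%, at an adjusted p of 0.00814. Neither interval reaches the fold threshold of 0.5.

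The adjusted p of Hsph1 at 24M did not hold under every setting. It was 0.0585 when 3M replicate 1 was left out, 0.0606 for 3M replicate 3, 0.0545 for 24M replicate 6 and 0.0683 for the pair of near-identical 24M libraries. Without 3M replicate 4, the library with the high striatum markers and the highest Hsph1 level, the log2 fold change was -0.24 at an adjusted p of 0.0612, and without 24M replicate 2, the library with blood markers, -0.25 at 0.0935. For the 29M comparison it was 0.0599 without 29M replicate 1, 0.0559 without 29M replicate 3 and 0.192 in 1 fit of all 4 groups. Over all 20 alternatives at 24M the log2 fold change kept between -0.33 and -0.24, and over 13 at 29M between -0.30 and -0.20. Hsph1 transcripts share no 50-base window with another gene.

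Hspa1a and Hspa1b, the inducible HSP70 genes, had values above 0 at both ages that did not pass the test. Hspa1b stood at 5.23, 4.88, 5.86, 6.93 and 4.25 CPM at 3M and at 5.98, 6.45, 6.34, 7.69 and 5.70 CPM at 24M, so that the groups overlapped. The log2 fold change was 0.25 (SE 0.14, interval -0.04 to 0.54) at an adjusted p of 0.261. In the paired-end samples it stood at 7.05, 5.96 and 6.02 CPM at 3M and at 8.66, 6.66 and 9.37 CPM at 29M. Here 2 of the 3 aged samples were above all 3M samples, and the log2 fold change was 0.39 (SE 0.15, interval 0.07 to 0.71) at an unadjusted p of 0.0200 and an adjusted p of 0.191. The interval of Hspa1b at both ages reaches past 0.5, so that a change of that size is not excluded.

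Hspa1a was measured at 4.32, 4.21, 3.74, 4.74 and 2.87 CPM at 3M and at 4.73, 5.01, 4.43, 4.92 and 4.30 CPM at 24M. The values overlapped (log2 fold change 0.24, SE 0.14, adjusted p = 0.282). At 29M it stood at 5.97, 5.71 and 7.05 CPM against 6.54, 5.43 and 4.95 CPM at 3M, overlapping too (0.16, SE 0.15, adjusted p = 0.657). Because the 2 genes share most of their sequence, their counts were also summed, which gave 0.24 at 24M (log2 scale, adjusted p = 0.203) and 0.29 at 29M (adjusted p = 0.237).

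The cytosolic HSP90 genes had values below 0 at both ages, and 1 of the 4 values passed the adjusted p. Hsp90aa1, the inducible form, was at 882, 843 and 871 CPM at 3M and at 776, 772 and 748 CPM at 29M, and the groups did not overlap. Its log2 fold change of -0.18 (SE 0.040, interval -0.26 to -0.09) is a change of -11.6%, at an adjusted p of 0.0292. With 1 library left out this p was 0.0607 (3M replicate 1), 0.0680 (3M replicate 3), 0.0905 (29M replicate 1), 0.0534 (29M replicate 2) and 0.110 (29M replicate 3), and with all 4 groups in 1 fit 0.315. At 24M Hsp90aa1 stood at 205, 184.5, 187, 185 and 191 CPM against 179, 183.5, 205, 221 and 205 CPM at 3M. Those groups overlapped, with a log2 fold change of -0.06 (SE 0.059, adjusted p = 0.528).

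Hsp90ab1, the constitutive form and the most abundant member, was at 1981, 1767, 1935, 1876 and 1730 CPM at 3M and at 1683, 1621, 1755, 1716 and 1582 CPM at 24M. Only the highest 24M sample reached into the 3M range. The log2 fold change was -0.15 (SE 0.049, interval -0.26 to -0.05) at an adjusted p of 0.0784, and DESeq2 gave an adjusted p of 0.0366. At 29M its levels of 1667, 1727 and 1695 CPM lay below the 1874, 1768 and 1791 CPM of the 3M samples. That log2 fold change was -0.09 (SE 0.043, adjusted p = 0.275), and unlike Hsp90aa1 this gene shares little sequence with others.

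Hspa8, the constitutive HSP70, had the same value at both ages and did not pass the test. It was at 276, 246, 276, 251 and 251 CPM at 3M and at 240.2, 231, 257, 241.5 and 244 CPM at 24M (log2 fold change -0.10, SE 0.048, adjusted p = 0.206). In the paired-end samples 1513, 1415 and 1431 CPM at 3M stood against 1360, 1368 and 1328 CPM at 29M. These did not overlap, and the log2 fold change was again -0.10 (SE 0.043, adjusted p = 0.231).

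Hspa5, the BiP gene of the endoplasmic reticulum, owed much of its 24M value to 1 library. The 3M samples were at 292, 253, 270, 386 and 293 CPM and the 24M samples at 239, 298, 250.1, 263 and 259 CPM, so that replicate 4 at 3M stood far above the rest. The log2 fold change was -0.19 (SE 0.098, adjusted p = 0.242) with it and -0.08 (adjusted p = 0.50) without it. At 29M Hspa5 was at 224, 226 and 227 CPM against 228, 236 and 232 CPM at 3M. All aged samples lay below, by a log2 fold change of -0.04 (SE 0.033, interval -0.11 to 0.03, adjusted p = 0.601), an interval that runs from -7.28% to 2.27%.

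Dnajb1 ranged from 50.5 to 66.5 CPM at 3M and from 46.3 to 54.9 CPM at 24M, and its log2 fold change of -0.13 (SE 0.079, adjusted p = 0.317) was -0.06 without 3M replicate 4. At 29M the value was 0.05 (SE 0.075, adjusted p = 0.801), with 44.2 to 54.4 CPM against 44.6 to 49.6 CPM. Hspb1, near the limit of detection, ranged from 0.727 to 2.34 CPM at 3M and from 0.773 to 1.90 CPM at 24M (log2 fold change -0.31, SE 0.33, interval -1.02 to 0.39, adjusted p = 0.574). That value was -0.12 without 3M replicate 4, where Hspb1 was highest at 3M, and with another sample left out it was -0.18 (3M replicate 1), -0.49 (3M replicate 2), -0.51 (24M replicate 2) or -0.17 (24M replicate 3). At 29M it ranged from 3.49 to 5.47 CPM against 3.14 to 3.51 CPM (0.35, SE 0.20, interval -0.09 to 0.79, adjusted p = 0.409), and 0.13 without 29M replicate 1, the highest sample. Both intervals of Hspb1 include 0 and reach past the fold threshold.

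Hspd1, the mitochondrial HSP60, was at 72.1, 70.2, 76.3, 79.9 and 72.0 CPM at 3M and at 74.8, 71.1, 75.7, 73.5 and 74.9 CPM at 24M. The log2 fold change was -0.00 (SE 0.048, interval -0.11 to 0.10). In the paired-end samples it was at 168, 168.5 and 167 CPM at 3M and at 157, 152 and 156 CPM at 29M. These groups stood apart with little spread inside them, and the log2 fold change was -0.12 (SE 0.033, interval -0.19 to -0.05) at an unadjusted p of 0.00371 and an adjusted p of 0.0813.

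**Figure D4:**
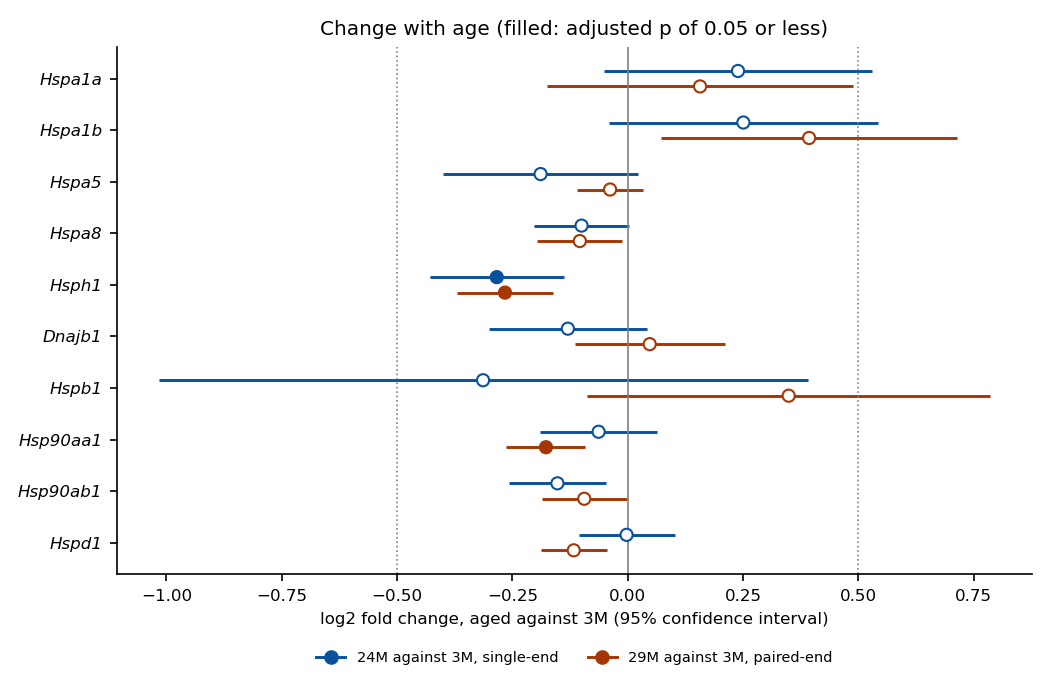
Log2 fold change of each member with its 95% confidence interval, 24M against 3M in single-end samples (blue) and 29M against 3M in paired-end samples (brown). Filled points passed an adjusted p of 0.05 (Hsph1 at both ages, Hsp90aa1 at 29M), dotted lines mark the fold threshold of 0.5, and no filled point lies beyond them.

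Among the 3M single-end samples, replicate 4 was the highest for 8 of the 10 members: Hspa1a, Hspa1b, Hspa5, Hsph1, Dnajb1, Hspb1, Hsp90aa1 and Hspd1. The same library was highest in the summed level of immediate early genes, the transcripts that neuronal activity induces within minutes, at 1438 CPM where the 3M range began at 766 CPM with a median of 1006 CPM and the 24M samples had 707 to 759 CPM. It also held the most RNA of the oligodendrocyte markers, 7306 CPM in a 3M range that began at 4207 CPM. The part of these differences in the chaperone values was not tested.

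The difference between the ages, tested as an interaction of both comparisons in 1 fit of all 4 groups, was found for 0 of the 10 members (edgeR, Benjamini-Hochberg adjustment, 0.0% of 16055 genes). DESeq2 also gave 0, and no member had an unadjusted p under 0.05 (10.4% of all genes, 6.27% with a lower and 4.15% with a higher change at 29M). Without 3M single-end replicate 5 the count over all genes was 9 higher and 83 lower, and it was 0 without any other single library. No member was called in any of these fits. Hspd1 had the smallest p, with a change at 29M minus that at 24M of -0.12 (SE 0.063, interval -0.25 to 0.02) at an adjusted p of 0.519. For Hsph1 the difference was 0.01 (SE 0.10, interval -0.20 to 0.23), for Hsp90aa1 -0.12 (interval -0.29 to 0.06) and for Hspa1b 0.13 (interval -0.33 to 0.59). A member that passed at 1 age and not at the other was therefore not shown to differ between them.

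The wider chaperone network was described by 8 lists with 104 other genes, of which 100 were tested at 24M and 99 at 29M. None was called at either age, and DESeq2 called 0 as well. At 24M the lists held 20 genes that were higher with an unadjusted p under 0.05 (14.0% of all genes) and 17 that were lower (12.1%), and at 29M 6 that were higher (9.86%) and 16 that were lower (7.48%). Past the adjusted p alone were 4 higher (3.21% of all genes) and 3 lower (2.37%) at 24M, and 0 higher (2.32%) and 3 lower (0.662%) at 29M. Their median log2 fold change was -0.02 at 24M and -0.04 at 29M, against -0.00 over all genes at each age.

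HSP70 and HSP110 relatives of Hsph1 were among those at 29M. Hspa4, another HSP110 protein, stood at 316, 302 and 299 CPM at 3M and at 274, 272 and 267 CPM at 29M (log2 fold change -0.17, SE 0.035, adjusted p = 0.0183). Hspa4l, the third of that family, stood at 214, 201 and 221 CPM at 3M and at 188, 188 and 192 CPM at 29M (-0.16, SE 0.039, adjusted p = 0.0444). For both, all 29M samples lay below all 3M samples, as in 10.5% of all genes. With each library left out in turn (6 fits) Hspa4 passed in 3 and Hspa4l in 1. At 24M the values were -0.10 (adjusted p = 0.168) for Hspa4 and -0.00 for Hspa4l. The genes were named for passing the adjusted p, after their values were seen. In this list of 9 genes, 8 were tested, with medians of -0.00 at 24M and -0.07 at 29M. Its largest value at 24M was that of Hspa13, an HSP70 of the microsomes, at 0.29 (adjusted p = 0.0564).

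Fkbp4 and Fkbp5 encode immunophilins that bind HSP90 in steroid receptor complexes. Fkbp4 was lower at both ages, by -0.23 at 24M (SE 0.053, adjusted p = 0.0284) and -0.19 at 29M (SE 0.039, adjusted p = 0.0189) on the log2 scale. All its aged samples lay below all its 3M samples in both comparisons, as in 3.42% of all genes at 24M and 10.5% at 29M. They ran from 109 to 121 CPM against 125 to 149 CPM at 24M and from 108 to 114 CPM against 123 to 129.6 CPM at 29M. Fkbp5 ran the other way at 24M, with 73.2 to 90.7 CPM against 54.3 to 74.7 CPM at 3M (0.37, SE 0.079, adjusted p = 0.0226), and at 29M all its samples lay between 75.2 and 76.5 CPM, above the 67.2 to 68.9 CPM of the 3M samples, as in 11.9% of all genes, without passing the test (0.16, adjusted p = 0.0962). Of the fits without 1 library Fkbp4 passed in 6 of 11 at 24M and 1 of 6 at 29M, and Fkbp5 in 9 of 11 at 24M. The 11 include those without 24M replicate 1 or 4, which lose no sample because the other of the near-identical pair remains. Bag4, an exchange factor of HSP70, was at 0.28 (adjusted p = 0.0344) at 24M and passed in 4 of 11. These genes too were named after their values were seen. The 20 co-chaperones had medians of -0.05 at both ages, and the largest value at 24M was that of Ptges3, the HSP90 co-chaperone p23, at 0.42 (adjusted p = 0.0718).

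Of the 19 J proteins, 1 was higher and 1 lower past the adjusted p at 24M and none at 29M. Dnajb9, an endoplasmic reticulum J protein, stood at 31.6 ± 3.52 CPM at 3M and 42.3 ± 4.84 CPM at 24M (SD, n = 5 each; log2 fold change 0.42, SE 0.091, adjusted p = 0.0233), and the value for Dnajb5 was -0.20 (adjusted p = 0.0487). With each of the 11 libraries left out in turn, Dnajb9 passed in 9 and Dnajb5 in 4, where leaving out 24M replicate 1 or 4 loses no sample. At 29M the largest was that of Dnaja4, at 0.14 (adjusted p = 0.298). In the list of 19 endoplasmic reticulum chaperones and unfolded protein response genes, 14 lay below 0 at 24M with a median of -0.09, and Atf4, a transcription factor of that response, passed the adjusted p at -0.23 (0.0464), and in 2 of 11 fits with a library left out. Calr, the lectin chaperone calreticulin, had the largest value, -0.26 (adjusted p = 0.0541). The list's summed level was 2461 to 2929 CPM at 3M, with the highest in replicate 4, and 2403 to 2551 CPM at 24M. At 29M the median was -0.03, none passed, and the largest value was 0.29 for Ern1, a sensor of that response (adjusted p = 0.115).

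The chaperonin containing TCP1 and prefoldin, which fold actin and tubulin, had 14 genes tested. At 29M all 14 lay below 0, from -0.13 to -0.02 with a median of -0.08, where 7645 of all 15097 genes tested lay below 0. None passed the adjusted p, and 3 had an unadjusted p under 0.05 (7.48% of all genes). At 24M 8 of the 14 lay below 0, the median was -0.01, and Vbp1, a prefoldin subunit, had the largest value at 0.46 (adjusted p = 0.0467, past the threshold in 3 of 11 fits with a library left out). Pfdn1, another prefoldin subunit, had the largest at 29M, -0.13 (adjusted p = 0.322). Among 11 mitochondrial chaperones and proteases the medians were -0.05 and -0.03. Hspe1, the HSP10 partner of Hspd1, had the largest value of that list at 29M, -0.19 (adjusted p = 0.194), and Yme1l1, a protease, at 24M, 0.25 (adjusted p = 0.0923).

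The heat shock factors and small heat shock proteins gave no gene past the adjusted p. In the list of 3 heat shock factors and the factor-binding protein Hsbp1, Hsf2 had the largest value at 24M, 0.20 (adjusted p = 0.0824), and Hsf4 at 29M, 0.32 (adjusted p = 0.173). Of 8 genes listed under small heat shock proteins 5 were tested at 24M and 4 at 29M. Hspb3 stood at -0.51 (adjusted p = 0.292) at 24M with a mean under 1 CPM. Hspb11, placed in the list by its symbol alone, stood at -0.45 (adjusted p = 0.213) at 29M, where the other 3 tested genes lay above 0.

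**Figure D5:**
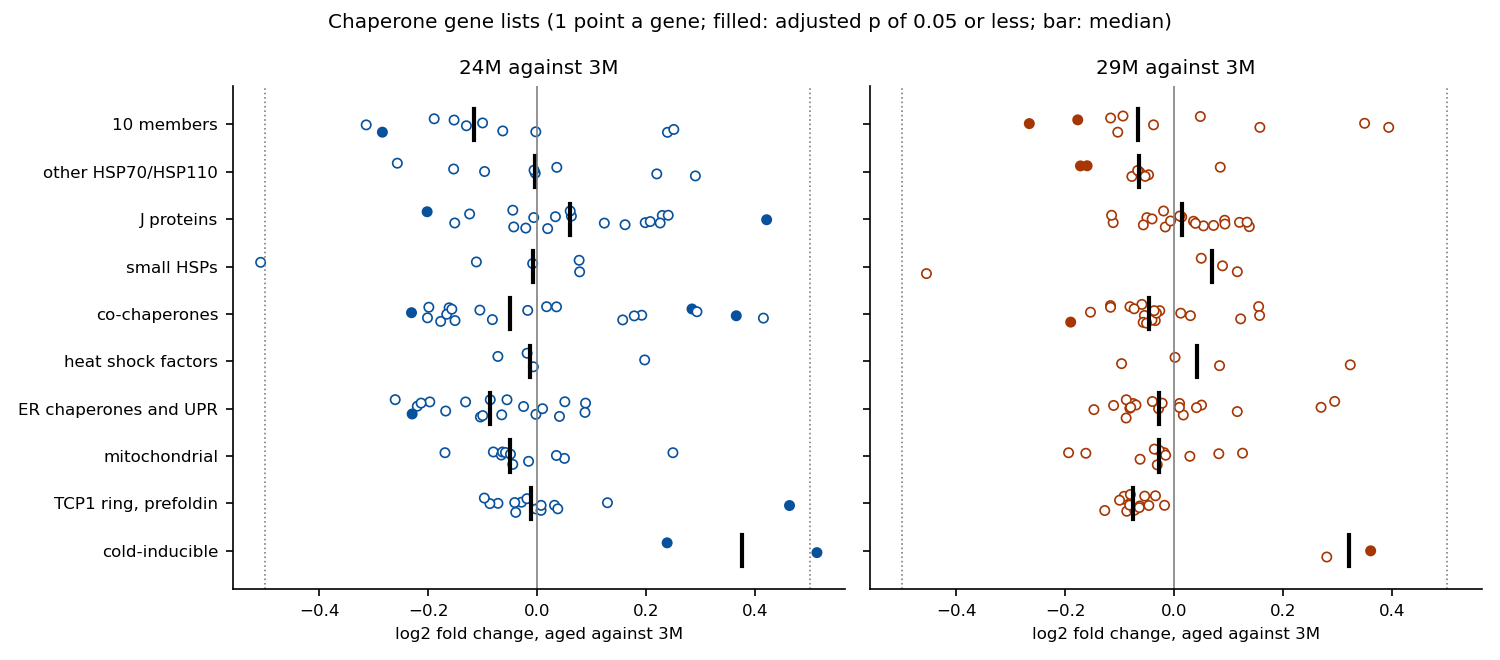
Log2 fold change of every tested gene of the 10 members, the 8 chaperone lists and the cold-inducible RNA-binding proteins, at 24M (left) and 29M (right). Each point is 1 gene, filled points passed an adjusted p of 0.05, and bars mark the list medians. The medians of the 8 chaperone lists lie between -0.09 and 0.07, and those of the cold-inducible pair at 0.38 and 0.32.

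The cold-inducible RNA-binding proteins Rbm3 and Cirbp, which respond to temperature in the opposite sense to heat shock genes, were set beside the members. Rbm3 stood at 13.3, 12.5, 9.99, 11.2 and 12.2 CPM at 3M and at 15.3, 18.7, 18.5, 15.8 and 15.7 CPM at 24M, without overlap, as in 3.15% of all genes in this direction. It was called there, with a log2 fold change of 0.51 (SE 0.094, adjusted p = 0.0121) that ranged from 0.46 to 0.56 over 20 alternatives. It was under the fold threshold without 3M replicate 3 (0.46) or 4 (0.49) and without 24M replicate 2 (0.48) or 3 (0.47), and at 0.49 with the near-identical 24M pair kept apart. At 29M Rbm3 stood at 115, 110 and 107.5 CPM against 74.5, 92.2 and 91.9 CPM (0.36, SE 0.068, adjusted p = 0.0105), and every aged sample was above every 3M sample (11.9% of all genes). Cirbp was at 0.24 (SE 0.063, adjusted p = 0.0448, and past it in 4 of 11 fits with a library left out) at 24M. At 29M its samples of 70.9, 75.5 and 74.5 CPM lay above the 52.6, 64.3 and 64.9 CPM of the 3M samples (11.9% of all genes) without passing the adjusted p. Like Hspa8, Rbm3 differed between the library types, with a 3M mean of 11.8 CPM in single-end and 86.2 CPM in paired-end samples.

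Among 17 immediate early genes 5 were called lower at 24M (0.638% of all genes), and the median of the list was -0.74. At 29M the median was 0.08, edgeR and DESeq2 called 0, and 1 gene, Egr3, was lower with an unadjusted p under 0.05 (7.48% of all genes). The 5 were Junb (-0.74, adjusted p = 0.0334), Egr1 (-0.94, adjusted p = 0.0272), Egr4 (-0.66, adjusted p = 0.0326), Arc (-1.27, adjusted p = 0.0487) and Ier2 (-1.06, adjusted p = 0.0358). Egr3, named after its values were seen, passed the adjusted p at 24M under the fold threshold (-0.31, adjusted p = 0.00887). At 29M it stood at -0.15 (adjusted p = 0.235). All its aged samples lay below all its 3M samples in both comparisons, as in 3.42% of all genes at 24M and 10.5% at 29M. Egr2 had the largest value at 24M, -2.28 (adjusted p = 0.0564), and Fos at 29M, 0.73 (adjusted p = 0.290). Without 3M replicate 4 the 24M median was -0.47 with 1 gene called. The count was also 1 without 3M replicate 3 or 24M replicate 3, 0 without 24M replicate 2 or 6, and 9 without 3M replicate 2. It was 0 with the near-identical 24M pair left out, 8 with DESeq2 and 10 in 1 fit of all 4 groups.

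Markers of other cell types moved with age in part. The 6 microglia markers were all above 0 at both ages, with a summed level of 379 to 403 CPM at 24M against 305 to 349 CPM at 3M and of 380 to 393 CPM at 29M against 296 to 307 CPM. Of the 7 astrocyte markers, Gfap was called higher at both ages. Its mean went from 484.5 to 766.5 CPM at 24M and from 465.6 to 810 CPM at 29M. S100b was higher too, by 0.49 at 24M and 0.39 at 29M, each time without overlap between the groups. It passed the adjusted p in both comparisons but stayed under the fold threshold. Aqp4 passed only at 24M (0.40), also under that threshold, and stood at 0.07 at 29M. Medians of the whole list were 0.08 and 0.07. Aldh1l1, at -0.26 (adjusted p = 0.0516), was the only marker below 0 at 24M. Together the astrocyte markers summed to 4966 to 5634 CPM at 3M and 5475 to 6048 CPM at 24M. In the paired-end samples their sums were 4789 to 4835 CPM at 3M and 5248 to 5279 CPM at 29M. The 5 blood markers were all above 0 at both ages, with medians of 1.32 and 0.79. At each age all 5 had an unadjusted p under 0.05, in the higher direction (14.0% of all genes at 24M, 9.86% at 29M). Hba-a1 and Alas2 were called higher at 29M (1.34% of all genes). At 24M none passed the adjusted p, and for none did all 24M samples lie above all 3M samples. Replicate 2 held 544 CPM of these markers there, against a 24M median of 135 CPM. Of 7 endothelium and pericyte markers, Cldn5 was called lower at 24M (-0.60, adjusted p = 0.0242, lower calls at 0.638% of all genes). At 29M all 7 lay below 0 with a median of -0.15, and 2 had an unadjusted p under 0.05 (7.48% of all genes). The neuronal markers had medians of 0.01 at 24M and -0.01 at 29M. The part of such shifts in the values of Hsph1 and the HSP90 genes was not tested.

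The samples were also used to describe which genes varied most like 2 of the members. Over 16 samples, after each gene's own group mean was taken away, Hspa1b was most like Phf23 (Pearson r = 0.86, Spearman rho = 0.87), Fam57b (0.85, 0.81), Rab11fip4 (0.84, 0.80), Arid5a (0.84, 0.77) and Armc7 (0.83, 0.74) among 11860 genes of at least 5 CPM. Without the 2 samples farthest from the median, 3M single-end replicates 4 and 5, r was 0.74 to 0.87 for these. Of the members, Dnajb1 (r = 0.78, rho = 0.69) and Hspa1a (r = 0.73, rho = 0.67) were nearest to Hspa1b. Without the same 2 samples their r was 0.68 and 0.52. Hspa5 was most like Hsp90b1 (r = 0.88, rho = 0.55), Meis2 (0.87, 0.59), Manf (0.85, 0.70), Ankrd63 (0.84, 0.76) and Ccnd3 (0.84, 0.84). Hsp90b1 and Manf encode endoplasmic reticulum proteins. Those of Hspa5 rested in part on 3M single-end replicate 4, since r was 0.51 to 0.67 without it and replicate 2. The genes share libraries and depth, and no test was made.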

How the data were processed

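Hippocampal polyA RNA was measured in 17 libraries. The authors aligned reads to GRCm38.p2 with STAR 2.3.0, counted reads per gene with HTSeq (mode intersection non-empty) and deposited counts without normalization. The sources used here name no annotation for the counting. GENCODE named 36602 of 38355 identifiers. Lines without a gene stayed out of library sizes, and the line for reads without a feature held 8.59% to 15.9% of a library's total over all lines.

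Each age was tested against its own 3M group by the quasi-likelihood method of edgeR 4.0.16 in R 4.3.3, after TMM scaling and filterByExpr, with p-values adjusted by Benjamini-Hochberg over all genes tested. Call thresholds follow the study's methods. The SE was obtained as the size of the log2 fold change over the square root of F. CPM values carry the TMM scaling of their comparison. The steps were also run on simulated counts with planted changes at the fold threshold or larger, in genes above a minimum mean count. Smaller changes were not planted, so that this run does not cover the sizes found for the members. All 10 members passed the filter in both comparisons.

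Rounded means of 24M replicates 1 and 4 entered as 1 sample. Where replicate 1 or 4 was left out, the other took the place of the mean, so that no sample was lost in that fit. Alternatives were DESeq2 1.42.0, its size factors, no filter, a filter of 1 CPM, summed Hspa1a and Hspa1b, each library left out, the near-identical pair kept apart or left out, 1 fit of all 4 groups, the replicate number as a block and no fold threshold. The members and gene lists were chosen with earlier results of these data known. Besides all members, the text names list genes called at either age, the gene of each list with the largest absolute log2 fold change, and the 5 genes most like Hspa1b and Hspa5 among those of at least 5 CPM. Genes past the adjusted p alone were added after their values were seen. Transcript windows and coding sequences came from GENCODE transcripts, and Hspa1a and Hspa1b were aligned with Biopython 1.88.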

Additional observations from a re-analysis of the deposited data

Results flagged for a closer look

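In 78 groups of 5 single-end samples, covering the members, the list genes named for their adjusted p and the summed lists, 4 held a sample far from the others, where chance gives about 3.9. None of them was a member, and the high Hspa5 level in 3M replicate 4 (386 CPM, with the next at 292.5) was not flagged by this rule. The striatum markers reached 589 CPM in 3M replicate 4, with the next sample at 207, and this library also held the highest level of 8 members among the 3M single-end samples. The blood markers reached 544 CPM in 24M replicate 2, with the next at 160, and the endothelium and pericyte markers were highest of the 24M samples there too, at 194 CPM with the next at 179. Dnajb5 stood at 126 CPM in 24M replicate 3, with the next at 112. Without 3M replicate 4 the 24M log2 fold change of Hsp90aa1 was -0.02, against -0.06 with it.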

How the results depend on the processing

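No member was called at 24M, at 29M or for the difference between ages under any of the alternatives that keep the fold threshold. Without that threshold, 1 member passed at 24M and 2 at 29M, and 7 and 3 genes of the chaperone lists. By the adjusted p alone, the count of members at 24M was 2 with DESeq2, with the 24M pair kept apart and with all 4 groups in 1 fit, and 0 with the pair left out, and it ran from 0 to 2 with 1 library left out. At 29M it was 0 with all groups in 1 fit and ran from 0 to 2 with 1 library left out. Chaperone list genes called at 24M ran from 0 to 2 with 1 library left out: Vbp1 (0.57) and Ptges3 (0.50) without 3M replicate 5, and Vbp1 (0.51) without 24M replicate 5.

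Replicate numbers did not pair the samples (same-numbered samples correlated at -0.137 to 0.0965). At 24M a block on the number uses only numbers found in both groups. 3M replicate 4 and 24M replicate 6, each alone under its number, therefore add nothing to the change with age in that fit. The part of this loss in the counts below was not tested. With the number as a replicate block, 0 members were called, and the adjusted p was passed by 0 members at 24M, where that of Hsph1 was 0.135, and by 1 at 29M, where that of Hsp90aa1 was 0.0550. The log2 fold change at 24M was 0.0218 for Hspd1 and 0.00717 for Hspa4l, neither past the adjusted p. Rbm3 at 24M (adjusted p = 0.128) and the immediate early genes were no longer called. Over all genes the block called 58 higher and 25 lower at 24M, against 210 and 100 without it, and 203 and 22 at 29M, against 202 and 17. At 24M it was 112 and 51 with the near-identical pair left out, 345 and 173 with all 4 groups in 1 fit and 313 and 150 with the pair kept apart. At 29M it was 83 and 3 with all 4 groups in 1 fit and 368 and 73 with no filter.

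Of 328 recomputed changes of members with age, 300 kept direction and side of the adjusted p and 7 changed sign, and of 239 recomputed differences between ages 13 changed sign. With 1 library left out, Hspd1 at 24M ran from -0.0291 to 0.0258, Hspa4l at 24M from -0.0371 to 0.0183 and Dnajb1 at 29M from -0.0374 to 0.11. The difference ran from -0.20 to 0.0165 for Hspa1a, -0.0368 to 0.0153 for Hspa8 and -0.0336 to 0.0714 for Hsph1. With the pair kept apart Hspd1 was 0.000863 and Hspa4l 0.00824. The cause was not tested. Low counts limit Hspb1, Hspa1a and Hspa1b.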
